A study of Homo sapiens with 24 samples.

Results

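The genes described here are 10 members of the vascular endothelial growth factor (VEGF) system: the receptor genes FLT1 (VEGFR1), KDR (VEGFR2) and FLT4 (VEGFR3), the co-receptor genes NRP1 and NRP2, the ligand genes VEGFA, VEGFB, VEGFC and PGF, and SERPINF1, which encodes the secreted angiogenesis inhibitor PEDF. They are 10 of 17687 named genes on the array, and each is read by 1 probe set. The list was put together because FLT1 was strongly higher and SERPINF1 strongly lower in the knockout line, so the line difference of these 2 genes is a description with no test. The other 8 genes are on the list as relatives of these 2 and were tested. They were measured in ES8-1F2, a derivative of ES8 made by CRISPR/Cas9 knockout of SLFN11, and in parental ES8 cells, a human Ewing sarcoma line. SLFN11 is a member of the Schlafen family that blocks stalled replication forks. Cells of each line were given 2 Gy of gamma rays or none (0 Gy), and RNA was collected after 4 h or 24 h, which makes 8 groups of 3 arrays. The knockout line is 1 derivative, so an effect of SLFN11 loss cannot be told apart from any other difference between this derivative and its parental cells. The labels do not tell separate cultures from repeat preparations, so every p-value here rests on a spread between replicates that may be only technical.

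VEGF ligands are dimers that bind receptor tyrosine kinases. VEGFA acts mainly through KDR, which carries most of the mitogenic signal in endothelial cells, while FLT1 binds VEGFA, VEGFB and PGF tightly and signals weakly, and its soluble form traps ligand. VEGFC and VEGFD act on FLT4 in lymphatic vessels, neuropilins hold ligands next to the receptors, and PEDF, a serpin without protease-inhibiting activity, restrains vessel growth.

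SLFN11 signal was lower in knockout cells in all 4 conditions, by 1.38 to 1.53 log2 units, and its mean was 6.83 ± 0.26 in knockout cells and 8.30 ± 0.18 in parental cells (SD, n = 12 each). All values are log2 signals, and 1 unit is a 2-fold difference. The background level of an array, below which 95% of its negative controls lie, was between 3.46 and 3.81. SLFN11 was above this level on all 12 knockout arrays, with a lowest value of 6.33, so its signal was reduced and not absent. All 9 measured Ewing sarcoma markers were above the background level on every array of both lines. Of 19 endothelial markers, 9 were above background on every array of knockout cells and 8 on every array of parental cells. TEK, EMCN and MMRN1 were above it on no array of either line, PECAM1 on none of knockout cells, and PLVAP and PROX1 on none of parental cells. The summed level of the 19, in log2, ranged from 9.01 to 9.32 over knockout arrays and from 8.83 to 9.28 over parental arrays. For the mean of the 4 conditions 5 of the 19 were called higher and 0 lower in knockout cells, where 30.4% of all genes were called. The median difference of the 19 was -0.02, and that of all genes was -0.02. ESAM, an adhesion molecule, rose by 0.50 (limma adjusted p = 0.000211), ECSCR by 0.54 (0.000107) and EGFL7, a secreted vascular protein, by 0.39 (3.43e-06). The others called were PLVAP, a protein of endothelial diaphragms, above background on 6 of 12 knockout arrays, and PROX1, a lymphatic transcription factor, on 3 of 12, and no fold is given for them. Markers above background on every array of both lines and not called for the mean were ROBO4 (-0.22), VWF (-0.16), CLDN5 (-0.08), TIE1 (-0.04), SOX18 (-0.01) and SOX17 (0.03). ROBO4 was called lower at 2 Gy and 4 h (-0.58). The part of the endothelial markers in the differences of FLT1, NRP1 and PGF was not tested. Correlations across genes were 0.985 to 0.993 between arrays of 1 group and 0.971 to 0.983 between arrays of different lines. Replicate 2 of both parental 2 Gy groups had a narrower signal range, with interquartile ranges of 3.28 and 3.34, than the other arrays, with 3.42 to 3.62.

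FLT1, the high-affinity receptor for VEGFA, VEGFB and PGF, was above background on all 12 knockout arrays and on none of the 12 parental arrays. In knockout cells the unirradiated arrays gave 5.91, 5.98 and 5.20 at 4 h, and 6.21, 6.10 and 5.20 at 24 h, while the irradiated arrays gave 6.24, 5.94 and 5.05 at 4 h, and 6.78, 6.26 and 5.72 at 24 h. In parental cells they ranged from 2.24 to 3.05, with a median of 2.73. The lines did not overlap in any condition, and in every knockout group replicate 3 gave the lowest value. Set against the background level, FLT1 was at least 4.24-fold higher in knockout than in parental cells at 0 Gy and 4 h, at least 4.50-fold higher at 0 Gy and 24 h, at least 4.67-fold higher at 2 Gy and 4 h, and at least 6.80-fold higher at 2 Gy and 24 h. In bulk RNA, fewer cells that carry a transcript and less of it per cell cannot be told apart. The annotation of its probe set lists both full-length and soluble FLT1 transcripts, which are therefore not separated here.

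Within knockout cells the order of the FLT1 group means was 6.25 ± 0.53 at 2 Gy and 24 h, 5.84 ± 0.55 at 0 Gy and 24 h, 5.74 ± 0.62 at 2 Gy and 4 h, and 5.70 ± 0.43 at 0 Gy and 4 h (SD, n = 3 each). Each neighbour in this order differs from the next by less than the SD of either group. These SDs also hold the low replicate 3 of every knockout group. Each array at 2 Gy and 24 h was higher than the same-numbered array at 0 Gy and 24 h and at 2 Gy and 4 h. Neither of these comparisons was called by limma for FLT1. The parental group means, 2.54 to 2.85, have no order, since all lie below background.

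The 2 other VEGF receptors were read in the same groups. KDR, the main signalling receptor, was below background on all 24 arrays, with 3.004 ± 0.13 in knockout cells and 2.73 ± 0.15 in parental cells (SD, n = 12 each). The mean over the 4 conditions passed the limma test, with a difference of 0.27 ± 0.07 (SE) and an adjusted p of 0.00250. Both lines were at background, so no fold is given. FLT4, the lymphatic receptor, was above background on every array, with 5.18 ± 0.20 in knockout cells and 5.08 ± 0.18 in parental cells. Its difference over the 4 conditions was 0.10, with a 95% interval from -0.07 to 0.27 and a limma adjusted p of 0.42. Per condition the FLT4 differences ran from -0.22 at 0 Gy and 4 h to 0.32 at 2 Gy and 4 h, and none passed the test.

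**Figure D1:**
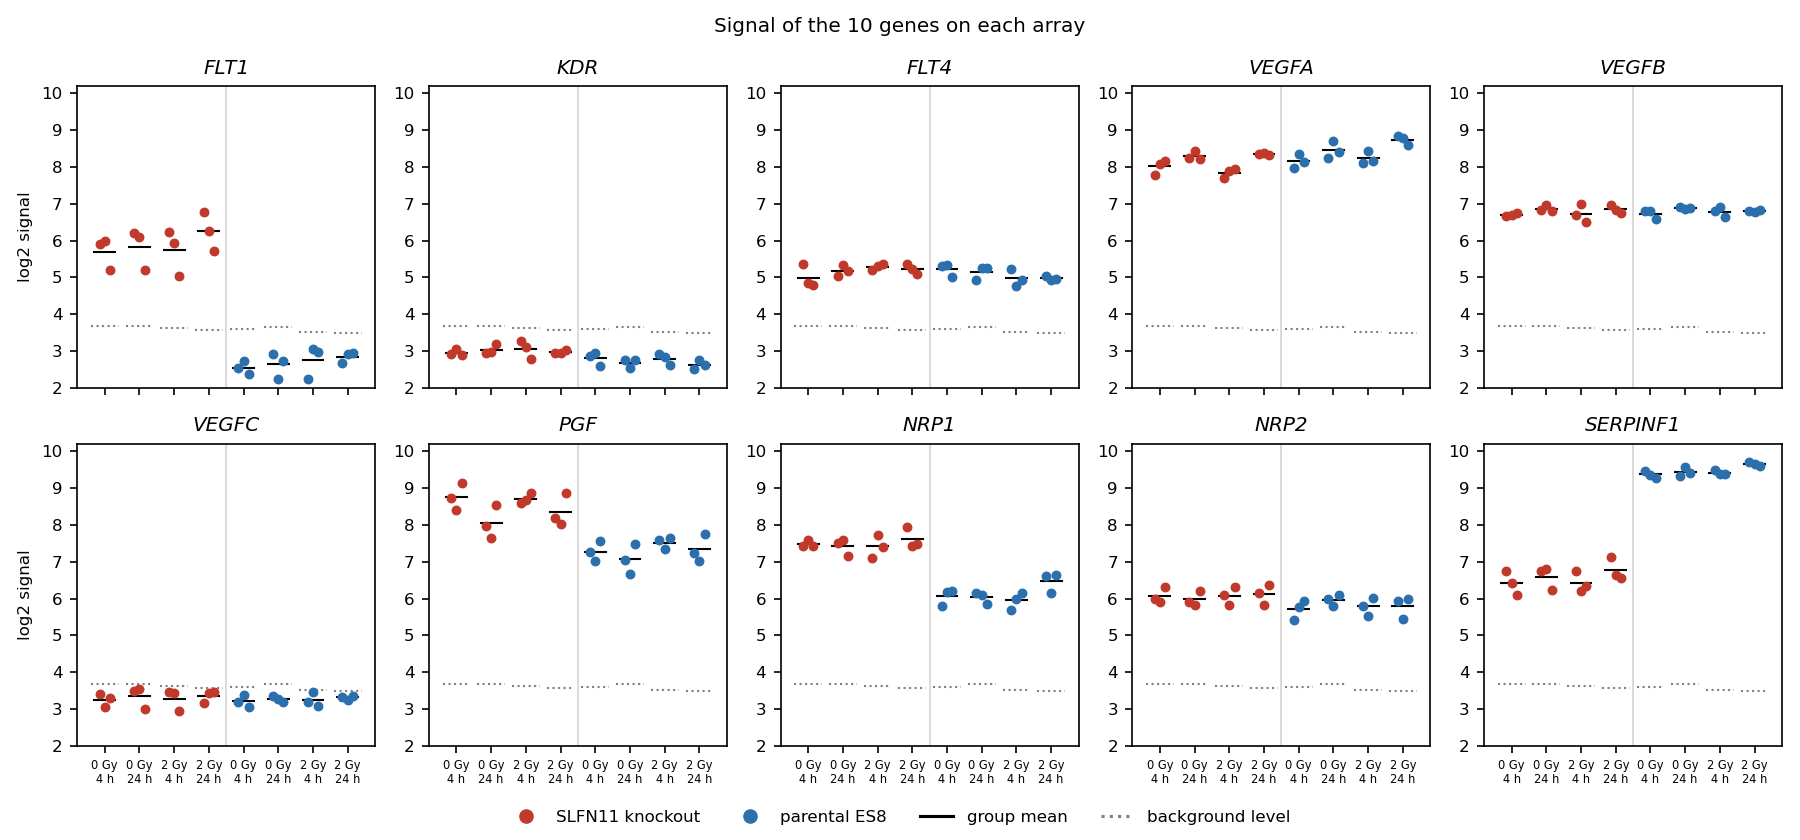
Log2 signal (y axis) of each of the 10 genes on every array, by dose and time (x axis), with knockout cells in red on the left and parental cells in blue on the right; bars are means of 3 replicates and dotted lines the mean background level of the group. FLT1 lies between 5.05 and 6.78 in knockout cells and below background in parental cells, and SERPINF1 lies between 6.10 and 7.13 in knockout cells and between 9.29 and 9.71 in parental cells.

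RefSeq promoter windows of 250 bases upstream of the annotated start (GRCh38.p14) were on hand for 6 of the 10 genes, with 7 windows in all, as PGF has 2. FLT4, VEGFA, NRP1 and SERPINF1 were not matched. The windows of FLT1 and of its ligand PGF are shown because both genes had more signal in knockout cells, and that of KDR because this sister receptor was at background in both lines. FLT1 is read on the minus strand at chr13:28495129-28495378, KDR on the minus strand at chr4:55125596-55125845, and PGF on the minus strand at chr14:74955765-74956014. Capitals in the FLT1 window mark TGACGTCA, the cAMP response element, which starts 81 bases before the transcript start, and TATAAA, a core promoter element bound by TBP, which starts 31 bases before it.
FLT1: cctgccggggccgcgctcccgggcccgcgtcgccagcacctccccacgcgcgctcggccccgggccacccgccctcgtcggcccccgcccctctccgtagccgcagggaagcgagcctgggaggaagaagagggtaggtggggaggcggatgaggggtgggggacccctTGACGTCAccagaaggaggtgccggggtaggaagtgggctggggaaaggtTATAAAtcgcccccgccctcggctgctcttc
KDR: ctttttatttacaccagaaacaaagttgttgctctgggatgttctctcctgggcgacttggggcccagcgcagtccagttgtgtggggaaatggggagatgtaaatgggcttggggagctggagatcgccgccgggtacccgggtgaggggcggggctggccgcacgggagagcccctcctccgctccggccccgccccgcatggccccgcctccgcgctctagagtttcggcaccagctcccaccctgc
PGF: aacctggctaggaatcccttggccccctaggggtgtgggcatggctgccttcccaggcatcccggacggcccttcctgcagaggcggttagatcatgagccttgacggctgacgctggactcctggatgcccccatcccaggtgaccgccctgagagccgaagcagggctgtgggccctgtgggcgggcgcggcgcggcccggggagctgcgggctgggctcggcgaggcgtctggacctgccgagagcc

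Searched on both strands, ACGTG, the core of the hypoxia response element, and GGAAGGAA, a tandem of the core bound by ETS factors, had no match in any of the 7 windows, which says only that these letters are not there. Of all 35116 windows of the table, 18.5% hold ACGTG and 3.06% hold GGAAGGAA. TGACGTCA and TATAAA were looked for after the windows had been read. They occur in 1.65% and 10.7% of all windows, and among the 7 only in that of FLT1. GGAA, the single ETS core, was also looked for afterwards, and it occurs in each of the 7 windows and in 92.7% of all windows. The GC content was 73.2% in the FLT1 window, 65.2% in that of KDR and 70.8% in the PGF window shown, beside a median of 58% over all windows.

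The co-receptor NRP1, which presents VEGFA and class 3 semaphorins to their receptors, was higher in knockout cells in every condition. At 0 Gy and 4 h its signals were 7.43, 7.58 and 7.44 in knockout cells, against 5.79, 6.18 and 6.20 in parental cells, a difference of 1.42 ± 0.17 (SE) and a 2.68-fold higher level (limma adjusted p = 9.31e-08). At 0 Gy and 24 h they were 7.50, 7.59 and 7.17 in knockout cells, against 6.16, 6.10 and 5.84 in parental cells, 2.61-fold higher (limma adjusted p = 1.57e-07). The lowest knockout value lay above the highest parental value in these groups and in both irradiated pairs. At 2 Gy and 4 h the values were 7.10, 7.74 and 7.41 in knockout cells, against 5.70, 6.001 and 6.15 in parental cells, 2.76-fold higher (limma adjusted p = 5.61e-08). At 2 Gy and 24 h they were 7.95, 7.42 and 7.48 in knockout cells, against 6.63, 6.17 and 6.65 in parental cells, 2.20-fold higher (limma adjusted p = 5.93e-06). Over the 4 conditions NRP1 rose by 1.35 ± 0.08 log2 units, and it was higher in 12 of 12 same-numbered pairs.

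NRP2, the neuropilin that works mainly with VEGFC and FLT4, had smaller estimates. Its signal ranged from 5.82 to 6.38 with a median of 6.05 in knockout cells, and from 5.41 to 6.09 with a median of 5.87 in parental cells, so the lines overlapped. Replicate 3 was the highest NRP2 array in all 8 groups and replicate 2 the lowest in 7 of them. NRP2 was higher in knockout cells in 11 of 12 same-numbered pairs, which differed by -0.09 to 0.59. No single condition passed the test. The mean over the 4 conditions did, at 0.25 ± 0.09 (SE, limma adjusted p = 0.032), and it no longer passed when any of 8 arrays was left out: replicate 3 of any knockout group, or the parental replicate 1 at 0 Gy and 4 h, 2 at 0 Gy and 24 h, 2 at 2 Gy and 4 h, or 2 at 2 Gy and 24 h. The difference was then 0.21 to 0.23 (adjusted p 0.061 to 0.077).

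Among the ligands, PGF, the placental growth factor that binds FLT1 and not KDR, was higher in knockout cells in every condition. At 0 Gy and 4 h PGF had 8.74, 8.41 and 9.14 in knockout cells, against 7.25, 7.02 and 7.56 in parental cells, a difference of 1.49 ± 0.21 (SE) and a 2.81-fold higher level (limma adjusted p = 3.86e-06). At 0 Gy and 24 h it had 7.97, 7.66 and 8.55 in knockout cells, against 7.04, 6.68 and 7.47 in parental cells, 1.99-fold higher (limma adjusted p = 0.00110). The groups did not overlap here or after irradiation. At 2 Gy and 4 h it had 8.60, 8.67 and 8.86 in knockout cells, against 7.59, 7.34 and 7.64 in parental cells, 2.28-fold higher (limma adjusted p = 0.000124). At 2 Gy and 24 h it had 8.19, 8.02 and 8.86 in knockout cells, against 7.25, 7.02 and 7.76 in parental cells, 2.02-fold higher (limma adjusted p = 0.000844). Replicate 3 was the highest array in all 8 groups and replicate 2 the lowest in 7 of them, and the 12 same-numbered pairs differed by 0.93 to 1.59. Over the 4 conditions PGF rose by 1.17 ± 0.11 log2 units.

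VEGFA, the main ligand of KDR, was above background on every array, and its line difference stayed within 0.40 log2 units. After 2 Gy it had 7.69, 7.89 and 7.94 in knockout cells at 4 h, against 8.12, 8.45 and 8.17 in parental cells, and fell by 0.40 ± 0.12 (SE, limma adjusted p = 0.018). At 2 Gy and 24 h it had 8.35, 8.37 and 8.32 in knockout cells, against 8.85, 8.79 and 8.60 in parental cells, again lower by 0.40 (limma adjusted p = 0.020). Neither irradiated pair of groups overlapped. Without irradiation the differences were -0.15 at 4 h and -0.16 at 24 h, with overlapping groups and adjusted p-values of 0.55 and 0.49. The mean over the 4 conditions fell by 0.28 ± 0.06 (limma adjusted p = 0.000308). Calls in the single conditions rested on few arrays. At 4 h after 2 Gy the call was lost without parental replicate 2 (-0.30, adjusted p = 0.15) or knockout replicate 1 (-0.33, adjusted p = 0.12), and at 24 h without parental replicate 1 (adjusted p = 0.10) or 2 (0.074) or knockout replicate 1 (0.057) or 3 (0.061).

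VEGFB, a ligand of FLT1 linked to heart and fat tissue, had 6.79 ± 0.14 in knockout cells and 6.80 ± 0.10 in parental cells (SD, n = 12 each), and the 95% interval of the difference over the 4 conditions ran from -0.13 to 0.11. VEGFC, the lymphatic ligand, was above background on 0 of 12 knockout arrays and 1 of 12 parental arrays. VEGFD, the other lymphatic ligand, was below background on all 24 arrays. No fold is given for either.

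SERPINF1 was above background on every array of both lines and lower in knockout cells in every condition. In knockout cells it had 6.76, 6.43 and 6.10 at 4 h and 6.75, 6.81 and 6.23 at 24 h without irradiation, and 6.74, 6.21 and 6.34 at 4 h and 7.13, 6.63 and 6.57 at 24 h after 2 Gy. Parental cells had 9.46, 9.37 and 9.29 at 4 h and 9.34, 9.57 and 9.40 at 24 h without irradiation, and 9.48, 9.38 and 9.39 at 4 h and 9.71, 9.66 and 9.61 at 24 h after 2 Gy. The highest knockout array lay more than 2 units below the lowest parental array. The differences were -2.94 at 0 Gy and 4 h, -2.84 at 0 Gy and 24 h, -2.99 at 2 Gy and 4 h, and -2.88 at 2 Gy and 24 h, and SERPINF1 ranked 10th, 13th, 8th and 15th from the bottom of 17687 genes. Over the 4 conditions SERPINF1 was 7.54-fold lower in knockout cells. In the order of the 4 knockout group means, 6.78, 6.60, 6.43 and 6.43, neighbours differed by less than their SDs of 0.28 to 0.33. Knockout arrays spread more than parental arrays, with an SD of 0.30 against 0.14 over 12 arrays each.

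Of the 8 genes other than FLT1 and SERPINF1, 2 were called at 0 Gy and 4 h and 2 at 0 Gy and 24 h, both higher, where called means a limma p below 0.05 after Benjamini-Hochberg adjustment over all 17687 genes. In these comparisons 11.8% and 11.6% of all genes were called. At 2 Gy 3 of the 8 were called at 4 h and 3 at 24 h, namely PGF and NRP1 higher and VEGFA lower, where 12% and 12% of all genes were called. For the mean of the 4 conditions 5 of 8 were called, beside 30.4% of all genes. These were PGF, NRP1 and NRP2, which were higher, VEGFA, which was lower, and KDR, which was below background on all 24 arrays, so that no higher level is read from its call. The list was made with this contrast in view, so nothing is read from these shares. The values of the 2 lines did not overlap for 2, 3, 3 and 5 of the 8 genes in the 4 conditions, in the order given, and for 26.1%, 26.6%, 24.2% and 25.7% of all genes.

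**Figure D2:**
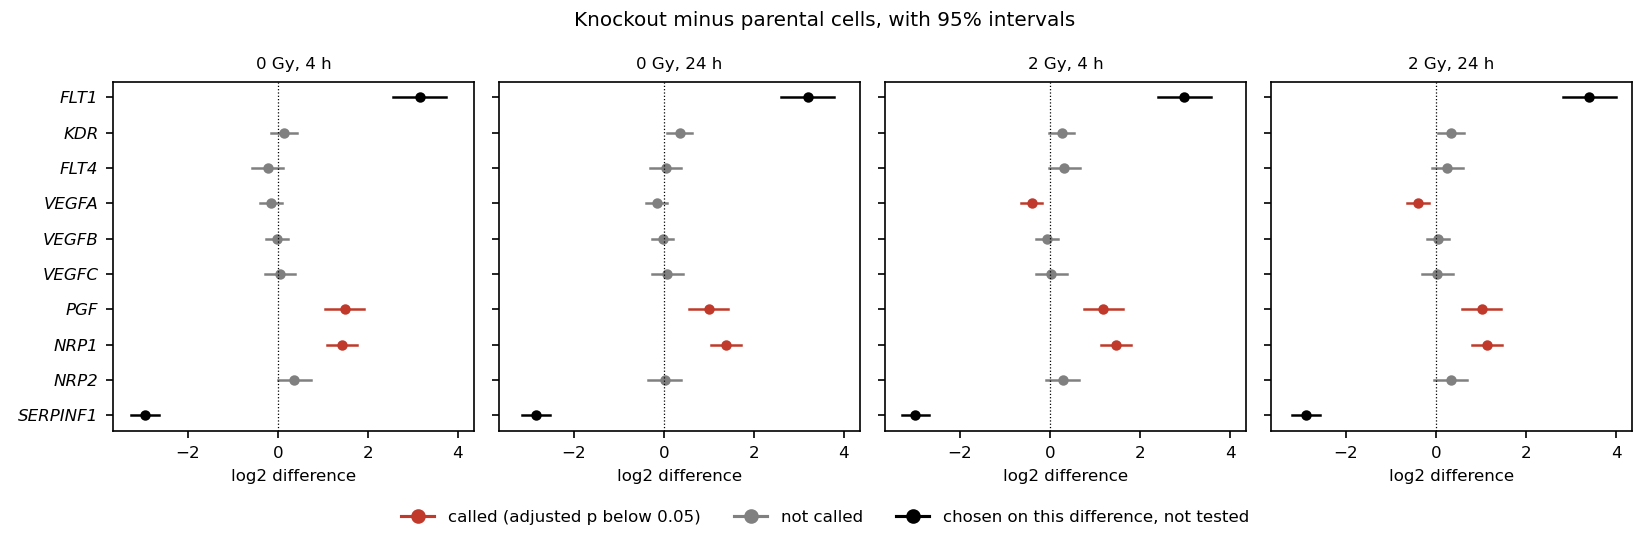
Difference in log2 signal, knockout minus parental cells (x axis), of the 10 genes (y axis) at each dose and time; points are limma estimates over 3 arrays a group and bars 95% intervals, in red where called, grey where not, and black for FLT1 and SERPINF1, which were chosen on this difference. PGF and NRP1 are called to the right of 0 in all 4 conditions and VEGFA to the left of 0 at 2 Gy.

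The design also asks whether irradiation altered these genes within a line, which the choice of genes did not use. None of the 10 was called by limma in any of the 4 comparisons of 2 Gy with 0 Gy. All genes were called at a rate of 0% at 4 h and 0% at 24 h in knockout cells, and of 0.226% at 4 h and 0.0678% at 24 h in parental cells. An unadjusted p below 0.05 was seen for 0 of 10 genes in 3 of the comparisons and for 2 of 10 in parental cells at 24 h. These were NRP1, with 6.63, 6.17 and 6.65 at 2 Gy, against 6.16, 6.10 and 5.84 at 0 Gy (difference 0.45, limma adjusted p = 0.52), and VEGFA, with 8.85, 8.79 and 8.60 at 2 Gy, against 8.26, 8.70 and 8.42 at 0 Gy (difference 0.29, limma adjusted p = 0.60). For FLT1 in knockout cells the difference was 0.05 at 4 h (95% interval from -0.54 to 0.64) and 0.41 at 24 h (from -0.17 to 1.00). For SERPINF1 it was 0.00 at 4 h and 0.18 at 24 h in knockout cells, and 0.04 at 4 h and 0.22 at 24 h in parental cells, each interval reaching 0.31 log2 units to either side. Over the 4 comparisons the 10 estimates lay between -0.24 and 0.45.

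Between 24 h and 4 h, VEGFA had estimates above 0 in both lines at both doses. In irradiated parental cells it rose by 0.50 ± 0.12 (SE), with 8.85, 8.79 and 8.60 at 24 h, against 8.12, 8.45 and 8.17 at 4 h (limma adjusted p = 0.031). This was the only call among the 10 genes, beside 0.695% of all genes. The call was lost without the 4 h replicate 1 (0.44, adjusted p = 0.21) or 3 (0.46, 0.10) or the 24 h replicate 1 (0.45, 0.21) or 2 (0.48, 0.12). In irradiated knockout cells VEGFA had 8.35, 8.37 and 8.32 at 24 h, against 7.69, 7.89 and 7.94 at 4 h, a difference of 0.51 that did not pass the limma test (adjusted p = 0.11, and 0.0058 in a fit blocked on replicate number). Here 0 of 10 genes and 0.0452% of all genes were called. Without irradiation the VEGFA differences were 0.28 in knockout cells and 0.29 in parental cells, and none of the 10 genes was called in either line. Of all genes, 0% were called in knockout cells and 0% in parental cells. An unadjusted p below 0.05 was seen for 2 of 10 genes in knockout cells at 0 Gy, 2 in knockout cells at 2 Gy, 1 in parental cells at 0 Gy and 2 in parental cells at 2 Gy.

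PGF had time estimates below 0 in both lines at both doses. In unirradiated knockout cells it had 7.97, 7.66 and 8.55 at 24 h, against 8.74, 8.41 and 9.14 at 4 h, a difference of -0.71 ± 0.21 (SE) that did not pass the limma test (adjusted p = 0.49, and 0.00091 in a fit blocked on replicate number). The groups overlapped, yet each same-numbered array was lower at 24 h. Across genes, the deviations of same-numbered arrays correlated at 0.03 to 0.18 in this comparison. In the other 3 settings the PGF estimates were -0.35 in irradiated knockout cells, -0.21 in unirradiated parental cells and -0.18 in irradiated parental cells. NRP1 in irradiated parental cells had 6.63, 6.17 and 6.65 at 24 h, against 5.70, 6.001 and 6.15 at 4 h, a difference of 0.53 (limma adjusted p = 0.19). FLT1 in irradiated knockout cells differed by 0.51 between 24 h and 4 h, with a 95% interval from -0.08 to 1.096.

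**Figure D3:**
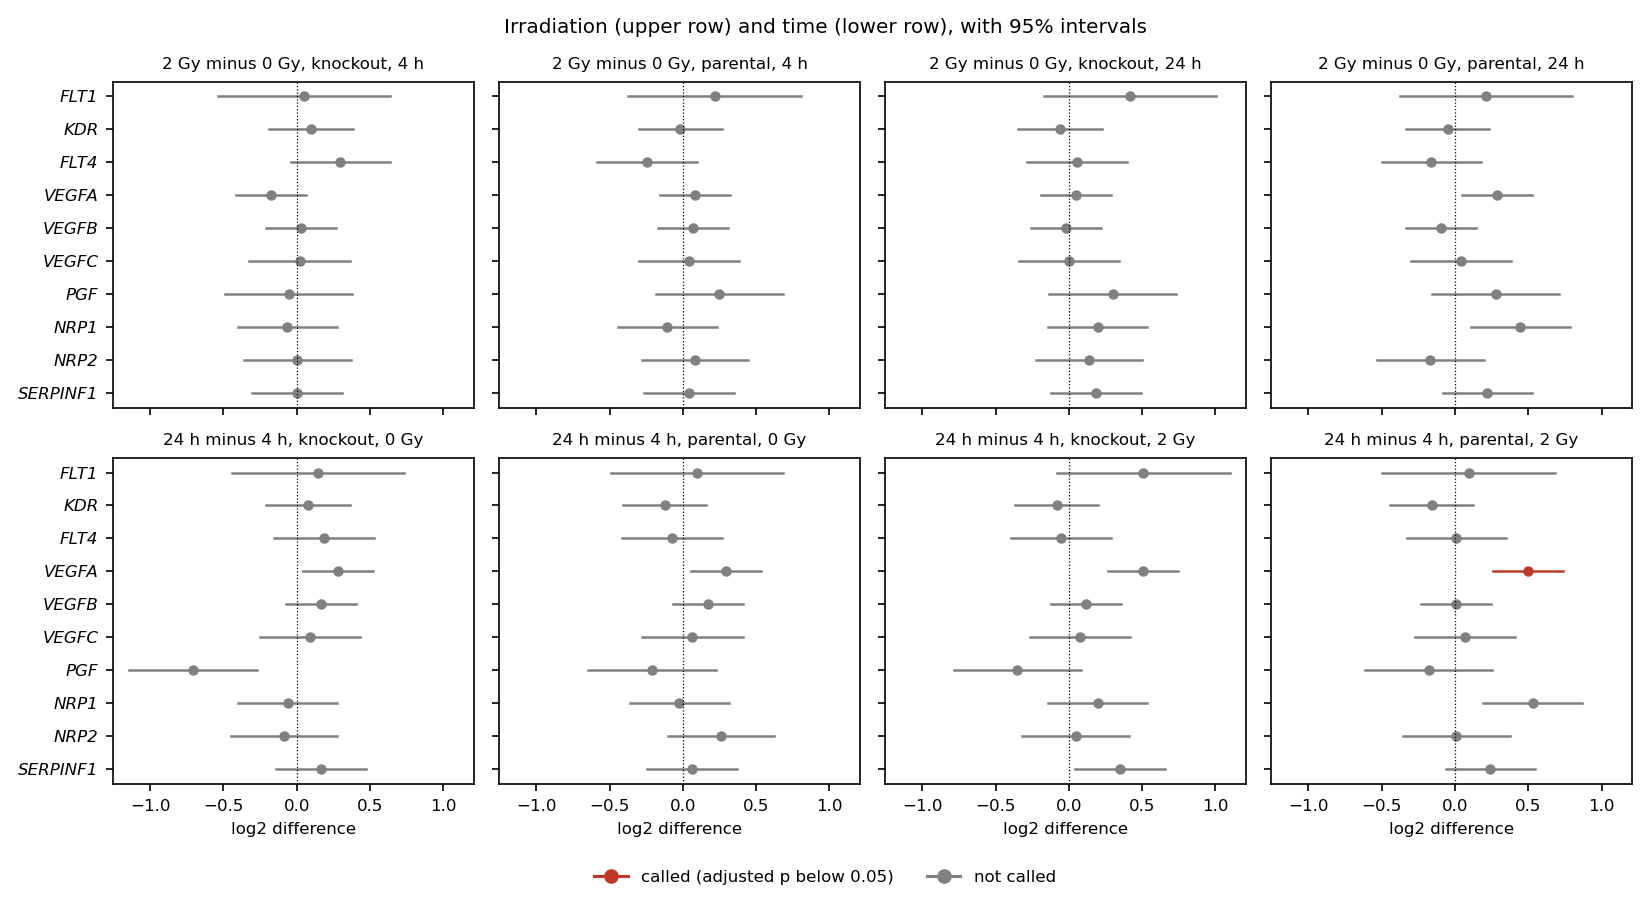
Log2 difference (x axis) of the 10 genes (y axis) for 2 Gy minus 0 Gy (upper row) and 24 h minus 4 h (lower row) in each line; points are limma estimates over 3 arrays a group, bars 95% intervals, and red marks a call. VEGFA in irradiated parental cells is the single call, and the intervals of FLT1 are the widest.

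Whether the lines differed in these responses was tested as a difference of differences. None of the 10 genes was called by limma for the response to 2 Gy at 4 h or 24 h or for the change with time at 0 Gy or 2 Gy, where 0%, 0%, 0% and 0% of all genes were called. An unadjusted p below 0.05 was seen once, for FLT4 at 4 h (0.54, limma adjusted p = 1.00). No estimate is given for FLT1, whose parental signals were below background on all 12 arrays. For SERPINF1 the estimates for the response to 2 Gy were -0.04 at 4 h and -0.04 at 24 h, with 95% intervals from -0.48 to 0.39 and from -0.47 to 0.39. VEGFA, called between the lines at 2 Gy and not at 0 Gy, had interaction estimates of -0.26 at 4 h and -0.24 at 24 h that did not pass the test, so the 2 doses are not shown to differ in their line difference.

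Other genes of the pathway were read from 7 lists, and each count is for the mean of the 4 conditions, where 30.4% of all genes were called and the median difference of all genes was -0.02. Of 30 measured genes of VEGF receptor signalling, 12 were called higher and 5 lower in knockout cells, with a median of 0.10. SPRY1, a feedback inhibitor of receptor tyrosine kinase signalling, fell by 1.88 ± 0.13 (SE), with 3.75 in knockout cells and 5.64 in parental cells (limma adjusted p = 1.09e-13). SPRY1 was above background on 8 of 12 knockout arrays and 12 of 12 parental arrays, so the size of its fall rests in part on background. PRKCB, protein kinase C beta, rose by 1.02 ± 0.08 (limma adjusted p = 5.88e-13) and is also a marker of Ewing sarcoma cells. HSPB1, a small heat shock protein phosphorylated downstream of KDR, rose by 0.75, and FYN, a SRC family kinase, by 0.53. These genes were called in all 4 conditions, as were 626 genes higher (3.54%) and 502 lower (2.84%) among all.

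Of 11 genes for neuropilin ligands, plexins and adaptors, 4 were called higher and 1 lower, with a median of 0.08. The gene called lower was SEMA3C, a secreted semaphorin that binds neuropilins. Its mean was 3.11 ± 0.19 in knockout cells and 5.53 ± 0.40 in parental cells (SD, n = 12 each), above background on 1 of 12 and on 12 of 12 arrays. Set against background, SEMA3C was at least 3.31-fold lower in knockout cells at 0 Gy and 4 h, at least 4.01-fold lower at 0 Gy and 24 h, and at least 2.70-fold lower at 2 Gy and 4 h. In irradiated parental cells it also rose with time, by 0.90 between 24 h and 4 h (limma adjusted p = 0.010), a call lost without replicate 1 of the 4 h group (0.69, adjusted p = 0.17) or of the 24 h group (0.88, 0.065), or with only the compared arrays (adjusted p = 0.070). EFNB2, the ligand ephrin-B2, rose there by 0.82 (limma adjusted p = 0.0016), and its receptor EPHB4 by 0.38 (limma adjusted p = 0.034). The EFNB2 call was lost without both narrow-range arrays (0.71, adjusted p = 0.073). EPHB4 lost its call without any array of these groups except the 4 h replicate 3, at 0.32 to 0.41 (adjusted p 0.074 to 0.18). Its call was also lost without both narrow-range arrays (0.27, adjusted p = 0.48), with only the compared arrays (0.14) and without the intensity trend (0.12).

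In the list of oxygen sensing and hypoxia targets, 5 of 15 genes were called higher and 1 lower, with a median of 0.08. ADM, the vasodilator peptide adrenomedullin, rose by 1.00 ± 0.11 (SE), with 5.80 in knockout cells and 4.81 in parental cells (limma adjusted p = 2.39e-09). The others called higher were HIF1A (0.32), HIF1AN (0.30), VHL (0.20) and SLC2A1 (0.15). Not called were the targets ANGPTL4 (0.11), BNIP3 (0.08), NDRG1 (-0.04), ANKRD37 (-0.06), EGLN3 (-0.07) and PDK1 (-0.25). The count of 5 was 3 without parental replicate 1 at 0 Gy and 4 h or at 2 Gy and 4 h, knockout replicate 2 at 0 Gy and 4 h or knockout replicate 3 at 2 Gy and 4 h.

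Lists around SERPINF1 showed calls in both directions. Of 12 other angiogenesis inhibitors, 2 were called higher and 1 lower, with a median of 0.04. The gene called lower was THBS2, a matrix glycoprotein of the thrombospondin family, below background on all 12 knockout arrays at 3.03 ± 0.28 and above it on all 12 parental arrays at 4.09 ± 0.32 (SD). It was at least 1.23-fold to 1.497-fold lower in knockout cells, depending on the condition (limma adjusted p = 2.95e-09 for the mean). Of 4 genes for reported PEDF receptors, 2 were called higher and 2 lower, and PLXDC2, a transmembrane receptor, fell by 0.59 ± 0.06 (SE, limma adjusted p = 2.27e-09). Of 14 other serpins, 3 were called higher and 1 lower, with a median of -0.06. SERPINE2, an inhibitor of thrombin and plasminogen activators, rose by 1.02 ± 0.06 (limma adjusted p = 2.70e-15) and SERPINH1, a collagen chaperone, by 0.42. SERPING1, the complement C1 inhibitor, had 3.46 in knockout cells and 4.71 in parental cells, and was above background on 3 of 12 and 12 of 12 arrays (difference -1.26, limma adjusted p = 2.69e-11). At 0 Gy and 4 h, where no knockout array was above background, it was at least 1.58-fold lower.

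Among 22 other angiogenic receptor kinases and their ligands, 7 were called higher and 4 lower, with a median of -0.02. FGFR2, a fibroblast growth factor receptor, had the largest difference of this list, with 6.82 ± 0.24 in knockout cells and 5.17 ± 0.27 in parental cells (SD, n = 12 each), and rose by 1.65 ± 0.09 (SE, limma adjusted p = 3.03e-16). The platelet-derived growth factor gene PDGFC rose by 0.96 and its receptor PDGFRA by 0.83, and FGF2 rose by 0.50. The count of 4 lower was 2 without both narrow-range arrays.

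**Figure D4:**
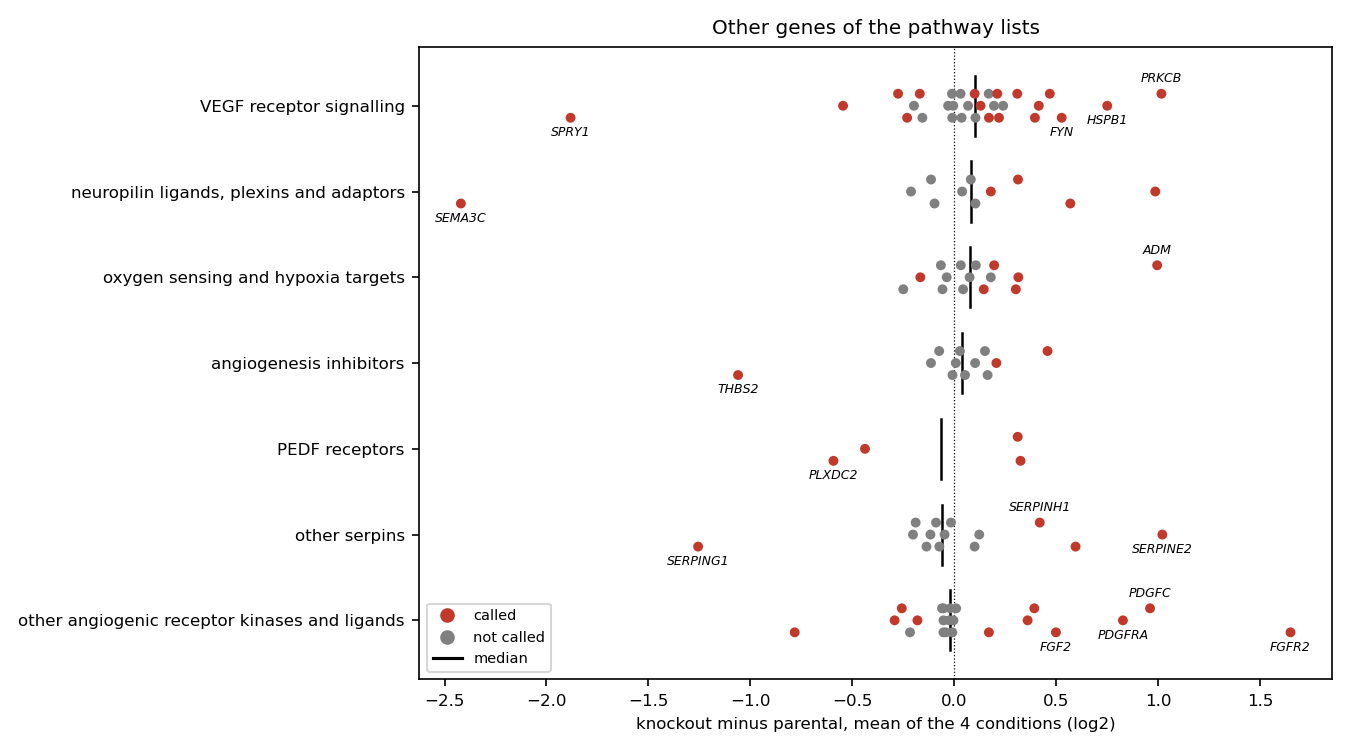
Difference in log2 signal, knockout minus parental cells as the mean of the 4 conditions (x axis), of every measured gene of 7 lists (y axis); red points are called by limma, grey points are not, and black bars are list medians. The medians lie between -0.06 and 0.10, and SEMA3C and SPRY1 stand farthest to the left and FGFR2 farthest to the right.

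Neighbouring genes on the chromosome were also read. For each of the 10, up to 20 genes on either side with a mean signal above 6 were taken, and the medians of their line differences lay between -0.02 and 0.08. Around FLT1 on chromosome 13 the 40 neighbours had a median of 0.03 and a range from -0.47 to 1.497, the highest being STARD13. PAN3 and POMP, which flank FLT1, differed by 0.03 and 0.16. Around SERPINF1 on chromosome 17 the 32 neighbours had a median of -0.01 and a range from -0.31 to 1.34. The adjacent serpin gene SERPINF2, with a mean signal of 5.98 and so not among the 32, differed by -0.09. PGF on chromosome 14 and NRP1 on chromosome 10 had neighbour medians of 0.01 and 0.03. The neighbour sets spanned 19.01 Mb around FLT1, 4.80 Mb around SERPINF1, 21.17 Mb around PGF and 32.91 Mb around NRP1, so they are not strictly local. PGF and NRP1 lay outside the range of their own neighbours. FLT1 and SERPINF1 were chosen for a large difference, so nothing is read from their place beside theirs.

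**Figure D5:**
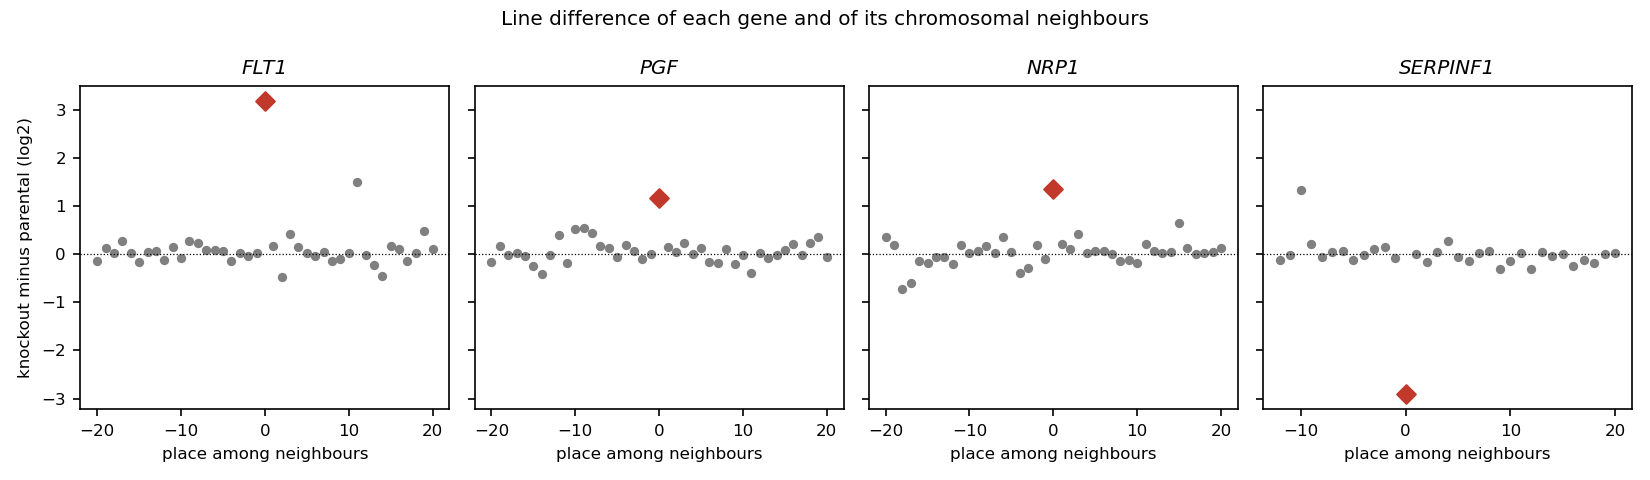
Line difference in log2 signal (y axis, mean of the 4 conditions) of FLT1, PGF, NRP1 and SERPINF1 (red diamonds, place 0) and of up to 20 genes to either side on the same chromosome (grey points). Only genes with a mean signal above 6 are shown, and the x axis gives the place among these genes. The diamonds of PGF and NRP1, the tested genes with the largest differences, lie outside the range of the grey points. FLT1 and SERPINF1 were chosen for their difference.

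The genes whose pattern over the 8 group means was most like that of FLT1, by the root mean square difference after centring each gene, were CMTM7 at 0.18, FAM162B at 0.23, WFDC1 at 0.24, SAMSN1 at 0.37 and NTS at 0.38. All were above background on 12 of 12 knockout arrays, and in parental cells SAMSN1 was above it on 2 of 12 and WFDC1 on 10 of 12. The parental group means of FLT1 lie below background, so these distances rest in part on a floor. For SERPINF1 they were MFAP4 at 0.13, PDE1B at 0.17, HSBP1L1 at 0.20, HS3ST4 at 0.20 and LOX, lysyl oxidase, at 0.22. Of 12 knockout arrays, HS3ST4 was above background on 1, HSBP1L1 on 7, LOX on 8 and PDE1B on 11, so their distances also rest in part on a floor. MFAP4 was above it on all 24 arrays. With the median absolute difference as the measure, the same 5 genes were nearest to FLT1 and 2 of the 5 remained for SERPINF1, MFAP4 and PDE1B. The 8 group means include the line difference for which FLT1 and SERPINF1 were chosen, so these matches are a description only.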

How the data were processed

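Total RNA of 24 samples was read on Affymetrix whole-transcript arrays. Per probe set, the authors deposited a log2 signal, made with RMA in Affymetrix Expression Console 1.1, per the submitters' processing notes. RMA corrects background, sets all arrays to 1 distribution and summarises probes, so a shift of most genes together would not be seen. The platform annotation gives 1 gene symbol to 17709 of 24351 probe sets. The probe set with the highest mean was kept for 20 genes with several, which left 17687 genes, with dim ones kept. Arrays have no read depth, and precision is limited by how many there are. At the median over all 17687 genes, the 95% interval reached 0.31 log2 units to either side between 2 groups. For a difference of differences it reached 0.44.

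Tests used limma 3.58.1 in R 4.3.3 (lmFit, eBayes with an intensity trend, two-sided), with 1 mean per group over all 24 arrays and Benjamini-Hochberg adjustment over 17687 genes; a gene was called below 0.05. Groups come from the sample titles. Where a group was at or below the background level on every array, folds are bounds against the higher of that level and the signal, averaged over its arrays. The background level is the 95th percentile of 612 negative control probe sets. The fit was tested on simulated data. Promoter windows are from RefSeq (GRCh38.p14), whose gene table also gave the gene order.

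The 10 genes, the 7 lists (146 measured of 159 genes, marker lists included) and the tests were chosen with earlier results of these data known. Named are the 10 genes and VEGFD; up to 4 genes per list called in the same direction in all 4 line comparisons, by size of the mean difference; list genes called for dose or time; and the 5 genes most like FLT1 and SERPINF1. Genes adjacent to FLT1 and SERPINF1, STARD13, the endothelial markers and the hypoxia list genes other than ADM are named outside this rule. The called markers, the other markers given with a difference and these hypoxia list genes were named after their values were seen. Replicate numbers come from the titles. In 4 of 12 comparisons of 2 groups all 3 same-numbered pairs deviated together (each correlation above 0.1): between the lines at 0 Gy and 4 h (0.10 to 0.17) and at 2 Gy and 24 h (0.15 to 0.23), and between doses in knockout cells at 4 h (0.15 to 0.27) and 24 h (0.13 to 0.24). Some comparisons outside this cut held stronger single pairs. They were irradiated parental cells between 24 h and 4 h (0.09 to 0.48), parental cells between doses at 4 h (0.09 to 0.41) and the lines at 2 Gy and 4 h (0.08 to 0.33). The alternatives were a replicate block, only the compared arrays, no intensity trend, array weights, renewed quantile normalization, median centring, a filter on dim genes, the mean of a gene's probe sets, leaving out each array and leaving out both narrow-range arrays. The same alternatives for the list genes were chosen after seeing the data.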

Additional observations from a re-analysis of the deposited data

How the results depend on the processing

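PGF and NRP1 stayed called as higher in knockout cells in all 4 conditions under every alternative run. SERPINF1, chosen on this difference, lay between -3.14 and -2.66 in single conditions. The count of called genes changed by over 1.5 times for time comparisons. For 24 h minus 4 h in irradiated parental cells it was 1, and 0 with only the compared arrays, 0 without the intensity trend, 2 with array weights (VEGFA and NRP1), 0 without both narrow-range arrays, and 0 to 1 with each array left out. With the replicate block it was 1 in unirradiated knockout cells (PGF) and 1 in irradiated knockout cells (VEGFA), against 0 without it. Among all genes the block raised the calls there from 0 to 18 and from 8 to 92. In these comparisons same-numbered pairs had correlations of 0.03 to 0.18 and of -0.05 to 0.15, so not all 3 pairs were above 0.1. The block also raised the calls among all genes from 123 to 294 for irradiated parental cells between 24 h and 4 h. Between the lines it raised them in all 4 conditions, for example from 2081 to 2598 at 0 Gy and 4 h. Whether same-numbered arrays belong together is not given by the labels. In the 4 comparisons where all 3 pairs were above 0.1, the block changed no call among the 10 genes. The VEGFA calls between the lines at 2 Gy were lost without the intensity trend (adjusted p 0.056 at 4 h and 0.063 at 24 h) and without both narrow-range arrays (0.16 and 0.056), and the NRP2 call for the mean with array weights (0.18, adjusted p = 0.087) and without both narrow-range arrays (0.17, 0.14). Of 15 named list genes none lost its call for the mean under any alternative, and 6 (FGF2, FYN, PLXDC2, SERPINH1, SPRY1 and THBS2) lost a call in a single condition without 1 array. Small list counts moved too. Inhibitors called higher were 1 instead of 2 after renewed quantile normalization and without replicate 1 of parental 2 Gy 4 h, knockout 0 Gy 24 h or knockout 2 Gy 24 h or replicate 2 of knockout 0 Gy 4 h. Hypoxia targets called lower were 2 instead of 1 with the block, array weights, the filter on dim genes, without both narrow-range arrays, or without parental replicate 3 at 0 Gy 24 h or 2 Gy 24 h, parental replicate 2 at 2 Gy 4 h or 24 h, or knockout replicate 1 at 0 Gy 4 h or 3 at 0 Gy 24 h. Other serpins called lower were 2 instead of 1 with the block, array weights, without both narrow-range arrays, or without parental replicate 2 at 0 Gy 24 h, 2 Gy 4 h or 2 Gy 24 h, parental replicate 3 at 2 Gy 4 h, or knockout replicate 1 at 0 Gy 24 h or 3 at 2 Gy 4 h. Neighbour medians stayed between -0.07 and 0.10 over all settings. The cause of these changes was not tested. Signals near background limit what can be said of KDR, VEGFC, VEGFD and parental FLT1.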
